A study of Mus musculus with 4 samples.

Results

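Iron and heme handling was followed through 8 genes in blood monocytes, among the 23995 gene symbols of the deposited table. The genes were taken from the table by symbol, from a list drawn up for their roles with earlier results of these data known. They were the iron importer gene Tfrc, the transporter genes Slc11a1 and Slc40a1, the ferritin genes Fth1 and Ftl1, the regulator gene Ireb2, and the heme breakdown genes Hmox1 and Blvrb. All 8 were found and each had an FPKM (a fragment count scaled to transcript length and to the mapped fragments of the library) reaching 1 in at least 1 library. Of these, 6 reached that level in all 4 libraries, and the exceptions were Tfrc and Slc40a1.

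Cells take up iron bound to transferrin through the transferrin receptor, store it inside ferritin shells built of heavy and light chains, and release it through ferroportin. Macrophages that clear old red cells also open the heme ring, which gives free iron and biliverdin. Iron regulatory proteins bind hairpins in the messenger RNAs, called iron responsive elements, and adjust translation or RNA decay to the iron supply. RNA levels therefore report only a part of ferritin and ferroportin control.

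Ly6Chi (classical) and Ly6Clo (patrolling) monocytes were isolated from the blood of mice of both genotypes, and each of the 4 combinations gave 1 library. RBP-J-deficient mice were Rbpj fl/fl Lyz2 cre/cre and the controls, titled WT in the records, were Rbpj+/+ Lyz2 cre/cre by the methods. RBP-J is the nuclear mediator of canonical Notch signalling. The Cre recombinase is driven from the lysozyme locus, which is active across monocytes, macrophages and neutrophils, and both genotypes carried it on both alleles. The mice were young adults matched for age and sex, with no treatment given in the labels. How many mice went into a library is not given in the sources used here.

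Rbpj itself was at 8.30 FPKM in control against 2.43 FPKM in RBP-J-deficient Ly6Clo monocytes, and of 14.4 and 2.85 in Ly6Chi monocytes. All 12 monocyte markers examined were expressed, but some differed widely between the Ly6Clo libraries. In control against RBP-J-deficient Ly6Clo, Ccr2 was at 59.2 and 473.7, Nr4a1 at 618.2 and 65.6, and Csf1r at 406.7 and 157.8. Others differed little, such as Cx3cr1 at 88.1 and 81.2 and Itgam at 57.7 and 51.5. The paper found similar Nr4a1 in both genotypes by flow cytometry and qPCR. Ly6c2, which encodes the antigen used to separate the subsets, was at 10.9 FPKM in control against 78.3 FPKM in RBP-J-deficient Ly6Clo monocytes, and at 2013 and 1594 in the Ly6Chi libraries. Summed FPKM per library ran from 711533 to 885652, and read depth is unknown. With 1 library per group no test was possible, so every difference below describes a pair of libraries without a replicate check. Fewer cells of a type and less RNA per cell cannot be told apart in such bulk samples. Differences are given as log2 ratios of (FPKM + 1), which understate the change of genes with low values. Both genotype comparisons share their libraries with both subset comparisons.

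Sequence elements come first because iron regulatory proteins act on the messenger RNAs that hold them. Iron responsive elements were searched in the annotated UTRs of GENCODE M21 on GRCm38, on the sense strand, as a CAGTGN loop with a C placed 6 bases before it and a stem of 5 base pairs between them. Such an element was found in the 5′ UTR of Fth1, Ftl1 and Slc40a1 (1 each) and in the 3′ UTR of Tfrc, where the search gave 4. Elements that depart from this pattern would be missed. Of all protein-coding genes with an annotated UTR, 0.148% held one in a 5′ UTR and 0.682% in a 3′ UTR. The ferritin elements and 2 of the 4 found in Tfrc are shown for comparison, written as DNA from 5′ to 3′ with the loop in capitals. Nearest and farthest refer to these 4 only. The Fth1 element lies on the plus strand at chr19:9982731-9982760, that of Ftl1 on the minus strand at chr7:45459779-45459808, and those of Tfrc on the plus strand at chr16:32631218-32631247 and chr16:32631709-32631738.
Fth1 5′ UTR: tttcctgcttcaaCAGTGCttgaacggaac
Ftl1 5′ UTR: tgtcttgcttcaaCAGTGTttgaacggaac
Tfrc 3′ UTR, nearest the stop codon: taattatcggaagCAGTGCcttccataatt
Tfrc 3′ UTR, farthest from it: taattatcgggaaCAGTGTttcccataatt
The elements of Fth1 and Ftl1 were identical at 27 of 30 bases. No element was found in the UTRs of Slc11a1, Ireb2, Hmox1 or Blvrb by this search.

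The 8 genes ranged from transcripts among the most abundant of the libraries to ones near the limit of detection. FPKM is per length, so the genes can be set beside each other. Ftl1 and Fth1 stood first and second of the 8 in every library, and Ftl1 ranked between 2 and 4 among all genes. Together they made up 3.03% of the summed FPKM in control Ly6Clo, 2.59% in RBP-J-deficient Ly6Clo, 2.73% in control Ly6Chi and 2.81% in RBP-J-deficient Ly6Chi monocytes. Hmox1 came next above Ireb2 in all 4 libraries. The places between varied, with Slc11a1 above Blvrb in both control libraries and below it in both RBP-J-deficient libraries. In the RBP-J-deficient Ly6Chi library these neighbours were as close as 68.2 and 68.4. Tfrc and Slc40a1 took the last places throughout.

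**Figure D1:**
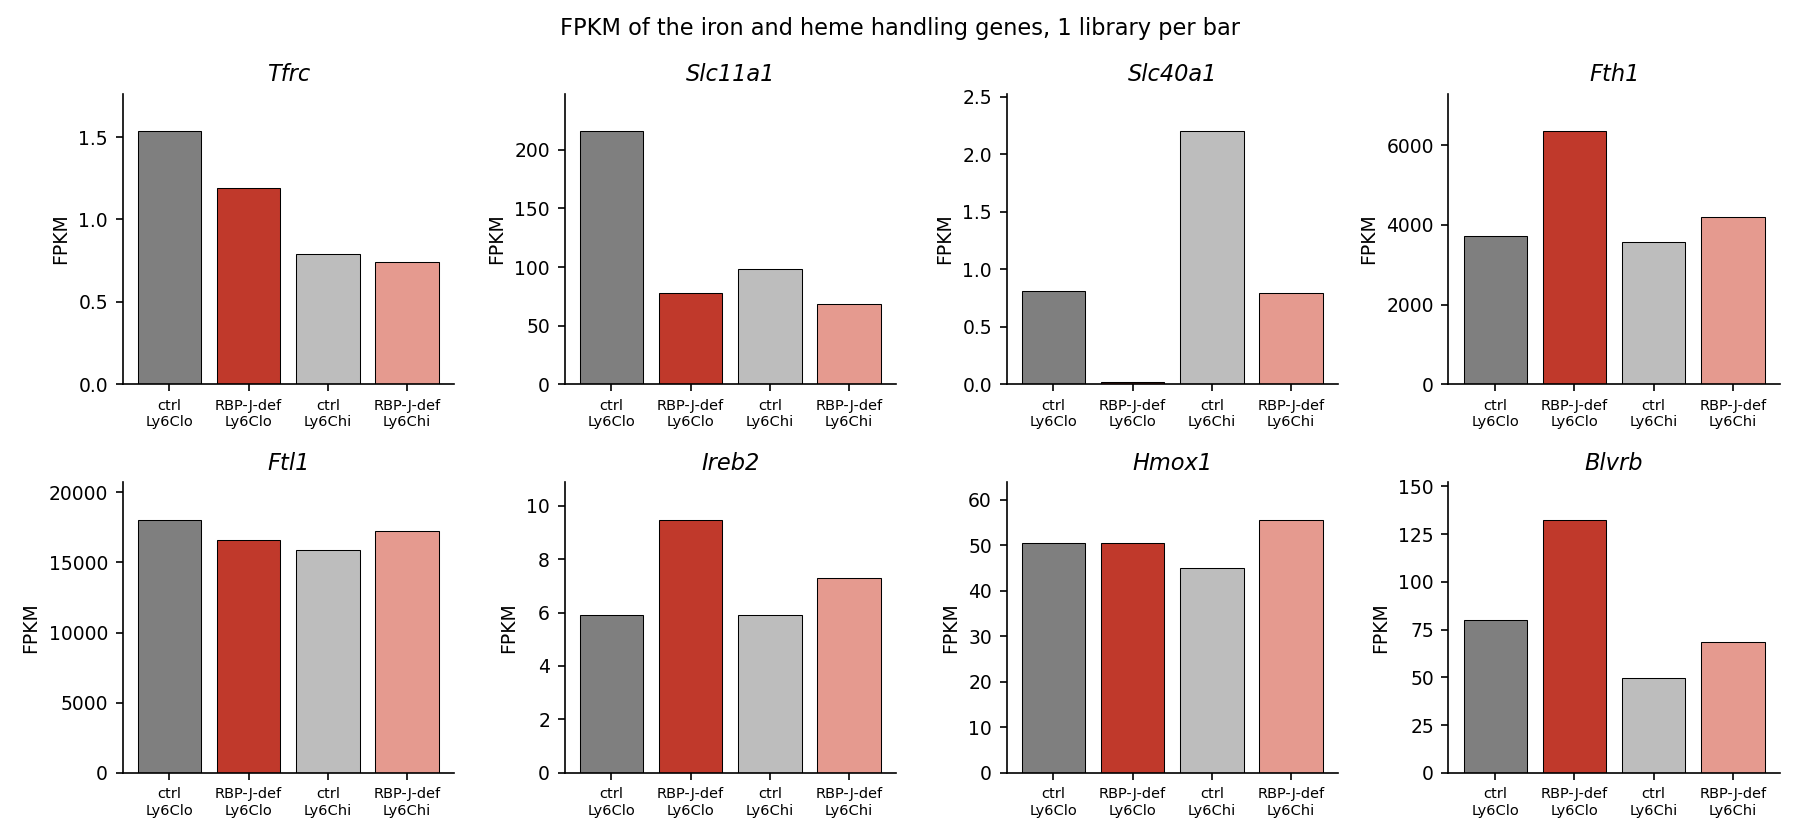
FPKM of each of the 8 genes (vertical axes from 0, scaled per gene) in the 4 libraries, 1 library per bar, control in grey and RBP-J-deficient in red. Slc11a1 is highest in control Ly6Clo at 215.6, Fth1, Ireb2 and Blvrb are highest in RBP-J-deficient Ly6Clo, and Ftl1 lies between 15889 and 18027 throughout.

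Slc11a1 (chromosome 1, 74375195 to 74386062, plus strand) had the largest genotype difference of the 8 in Ly6Clo monocytes, except with a pseudocount of 0.1 or with the GC trend subtracted, where Slc40a1 differed more. It encodes NRAMP1, which moves iron and other divalent metals out of the phagosome. Its FPKM was 215.6 in control Ly6Clo, 77.8 in RBP-J-deficient Ly6Clo, 98.3 in control Ly6Chi and 68.2 in RBP-J-deficient Ly6Chi. Control Ly6Clo monocytes thus stood apart from the other 3 libraries. Between genotypes, RBP-J-deficient over control, the log2 ratio was -1.46 in Ly6Clo and -0.52 in Ly6Chi monocytes. Of the expressed genes, 4.39% had a ratio as low or lower in Ly6Clo and 16.9% in Ly6Chi. Ly6Clo over Ly6Chi, the log2 ratio was 1.12 within control and 0.19 within RBP-J-deficient mice, which is 2.18-fold and 1.14-fold in (FPKM + 1). The Ly6Clo genotype ratio lay between -1.82 and -1.13 under the 5 other ways of processing, each time past 2-fold.

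The promoter of Slc11a1 is shown because this gene alone of the 8 was past 2-fold and because RBP-J binds sites with the core TGGGAA. Promoters from RefSeq (GRCm38.p6, 250 bases before the start of transcription) were listed for 6 of the 8 genes, and Slc40a1 and Hmox1 had no entry. At the first listed start TGGGAA was present, on either strand, in Slc11a1 and Fth1, 2 of the 6, against 21.5% of 27025 promoters. The other listed start of Fth1, which lies closer to the element shown above, held none, and over all listed starts the motif was present in 3 of the 6 with Blvrb. The core of the antioxidant response element, TGANNNNGC, which NRF2 and BACH1 bind with small MAF proteins, was present in Slc11a1 and Blvrb, also 2 of the 6, against 35.1%. The Slc11a1 sequence lies on the plus strand at chr1:74374953-74375202, with TGGGAA in capitals, 10 to 5 bases before the start.
Slc11a1 promoter: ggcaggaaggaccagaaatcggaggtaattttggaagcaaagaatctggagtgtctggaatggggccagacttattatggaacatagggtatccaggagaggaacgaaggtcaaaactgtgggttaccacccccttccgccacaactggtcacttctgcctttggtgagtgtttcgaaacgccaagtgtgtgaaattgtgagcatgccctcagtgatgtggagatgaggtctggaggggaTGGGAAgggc
A match of letters describes the sequence and is no evidence of binding.

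Slc40a1 (chromosome 1, 45908068 to 45926523, minus strand) was scarce in all libraries. It encodes ferroportin, the only known iron exporter of the cell. Its FPKM was 0.807 in control Ly6Clo, 0.0158 in RBP-J-deficient Ly6Clo, 2.197 in control Ly6Chi and 0.793 in RBP-J-deficient Ly6Chi. In each subset RBP-J deficiency went with the lower value, and in each genotype Ly6Clo monocytes had the lower value. The log2 genotype ratio was -0.83 in both subsets. At these levels the size is set by the pseudocount, and the Ly6Clo ratio went from -0.21 with a pseudocount of 5 to -2.97 with 0.1. In Ly6Chi monocytes the same settings gave -0.31 and -1.36.

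Tfrc (chromosome 16, 32608920 to 32632794, plus strand) encodes the transferrin receptor. Its FPKM was 1.53 in control Ly6Clo, 1.19 in RBP-J-deficient Ly6Clo, 0.789 in control Ly6Chi and 0.742 in RBP-J-deficient Ly6Chi. Both Ly6Clo libraries were above both Ly6Chi libraries. The log2 genotype ratio was -0.21 in Ly6Clo and -0.04 in Ly6Chi monocytes. Ly6Clo over Ly6Chi, it was 0.50 within control and 0.33 within RBP-J-deficient mice, and the latter turned to -0.05 once the trend of the ratio with GC content was subtracted. Such low levels give little precision.

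The ferritin chains differed in their pattern. Fth1 (chromosome 19, 9980598 to 9985098, plus strand) encodes the heavy chain, which carries the ferroxidase that oxidizes iron for storage. Its FPKM was 3712.5 in control Ly6Clo, 6347 in RBP-J-deficient Ly6Clo, 3561 in control Ly6Chi and 4187 in RBP-J-deficient Ly6Chi. The RBP-J-deficient Ly6Clo library stood above the other 3, and both RBP-J-deficient libraries stood above both controls. Between genotypes the log2 ratio was 0.77 in Ly6Clo and 0.23 in Ly6Chi monocytes, where 15.4% and 30.8% of expressed genes had a ratio as high or higher.

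Ftl1 (chromosome 7, 45457944 to 45459884, minus strand) encodes the light chain, which favours the formation of the iron core. Its FPKM was 18027 in control Ly6Clo, 16580.3 in RBP-J-deficient Ly6Clo, 15889 in control Ly6Chi and 17257 in RBP-J-deficient Ly6Chi. The 4 libraries lay within 1.13-fold, the narrowest range among the 8 genes. The log2 genotype ratio was -0.12 in Ly6Clo, where it turned to 0.36 after the GC trend was subtracted, and 0.12 in Ly6Chi, where it turned to -0.03 when FPKM was rescaled to a common sum. Ferritin genes have near-identical copies in the mouse genome, such as Fth-ps2, Fth-ps3, Ftl1-ps1, Ftl1-ps2 and Ftl2-ps, none of which has a row in the table, so the assignment of their reads is uncertain.

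A ratio of both chains within a library does not depend on the scaling between libraries. Fth1 over Ftl1 was 0.206 in control Ly6Clo, 0.383 in RBP-J-deficient Ly6Clo, 0.224 in control Ly6Chi and 0.243 in RBP-J-deficient Ly6Chi. On the log2 scale the Ly6Clo genotype ratio of Fth1 exceeded that of Ftl1 by 0.89, and by 0.35 after the GC trend was subtracted. In Ly6Chi monocytes the excess was 0.11, and it turned to -0.14 after that step. The longest transcript of Fth1 has a GC content of 49.95% and that of Ftl1 58.1%. The part of GC content in the difference was not tested further.

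**Figure D2:**
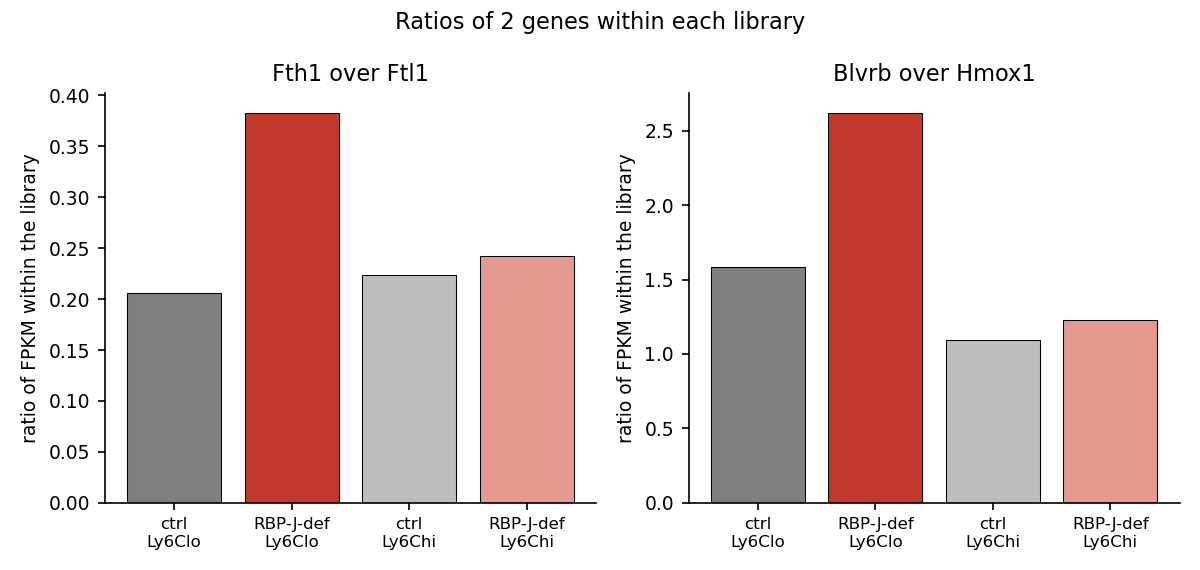
FPKM ratio of Fth1 over Ftl1 (left) and of Blvrb over Hmox1 (right) within each of the 4 libraries, 1 library per bar, axes from 0. Both ratios are highest in RBP-J-deficient Ly6Clo monocytes, at 0.383 and 2.62.

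Ireb2 (chromosome 9, 54863789 to 54912530, plus strand) encodes IRP2, an RNA-binding protein that recognizes iron responsive elements and is degraded when iron is plentiful. Its FPKM was 5.91 in control Ly6Clo, 9.47 in RBP-J-deficient Ly6Clo, 5.91 in control Ly6Chi and 7.31 in RBP-J-deficient Ly6Chi. The control libraries were alike and both RBP-J-deficient libraries were higher. Between genotypes the log2 ratio was 0.60 in Ly6Clo and 0.27 in Ly6Chi monocytes. After subtraction of the GC trend it was 0.11 and 0.06, and the longest Ireb2 transcript has a GC content of 39.0%.

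Heme breakdown showed one gene at a steady level and another that varied. Hmox1 (chromosome 8, 75093621 to 75100589, plus strand) encodes heme oxygenase 1, the stress-inducible enzyme that opens the heme ring. Its FPKM was 50.4 in control Ly6Clo, 50.5 in RBP-J-deficient Ly6Clo, 45.0 in control Ly6Chi and 55.5 in RBP-J-deficient Ly6Chi. All 4 values lay within 1.23-fold. The log2 genotype ratio of 0.0036 in Ly6Clo monocytes has no firm direction, being -0.35 when FPKM was rescaled to a common sum, -0.02 with median centring and 0.20 after the GC trend was subtracted. In Ly6Chi monocytes it was 0.30.

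Blvrb (chromosome 7, 27447978 to 27466144, plus strand) encodes biliverdin reductase B, a flavin reductase that is also abundant in red cells. Its FPKM was 79.9 in control Ly6Clo, 132.4 in RBP-J-deficient Ly6Clo, 49.4 in control Ly6Chi and 68.4 in RBP-J-deficient Ly6Chi. Within each subset the RBP-J-deficient library was higher, and within each genotype Ly6Clo was higher. For genotype the log2 ratio was 0.72 in Ly6Clo and 0.46 in Ly6Chi monocytes, and Ly6Clo over Ly6Chi it was 0.68 within control and 0.94 within RBP-J-deficient mice. These directions were the same under all settings run. Blvrb over Hmox1 within a library was 1.58 in control Ly6Clo, 2.62 in RBP-J-deficient Ly6Clo, 1.10 in control Ly6Chi and 1.23 in RBP-J-deficient Ly6Chi.

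**Figure D3:**
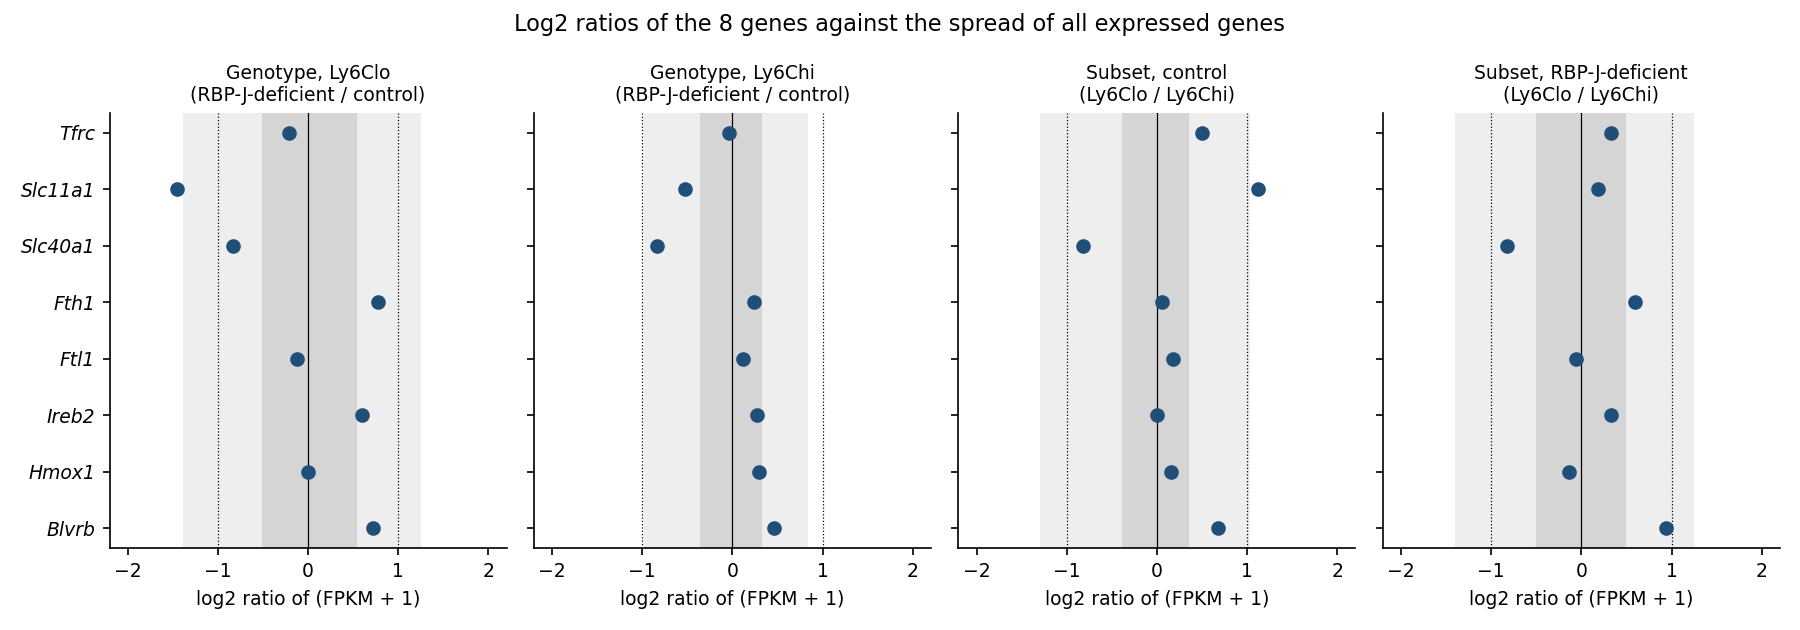
Log2 ratio of (FPKM + 1) of the 8 genes (points, 1 pair of libraries each) in the 4 comparisons, with the middle 50% (dark band) and 90% (light band) of all expressed genes and dotted lines at 2-fold. Slc11a1 is the member past 2-fold, at -1.46 in the Ly6Clo genotype comparison and 1.12 in the control subset comparison.

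The counts past 2-fold were read against all expressed genes. In the Ly6Clo genotype comparison 1 of the 8 genes was 2-fold or more lower (Slc11a1), against 11.1% of expressed genes, and 0 were 2-fold or more higher, against 8.97%. In the Ly6Chi genotype comparison 0 were lower and 0 higher, against 4.55% and 2.64%. In control mice 1 gene was 2-fold or more higher in Ly6Clo than in Ly6Chi monocytes (Slc11a1), against 5.21%, and 0 were lower, against 7.75%. In RBP-J-deficient mice 0 were higher and 0 lower, against 8.4% and 10.6%. None of the 8 passed the fold thresholds of the study, 5.7 and 0.2 on (FPKM + 1), which 0.938% of expressed genes passed in Ly6Clo and 0.303% in Ly6Chi monocytes. With 8 genes these counts are near the background. At 1.5-fold, 3 genes were higher (Fth1, Ireb2 and Blvrb) and 2 lower (Slc11a1 and Slc40a1) in the Ly6Clo genotype comparison, against 23% and 22% of expressed genes. In the Ly6Chi genotype comparison 0 were higher and 1 lower (Slc40a1), against 10.9% and 14.3%. Between the subsets of control mice 2 were higher in Ly6Clo (Slc11a1 and Blvrb) and 1 lower (Slc40a1), against 13.7% and 16.2%. Between those of RBP-J-deficient mice 2 were higher (Fth1 and Blvrb) and 1 lower (Slc40a1), against 20.7% and 21.4%. The median log2 genotype ratio of the 8 was -0.06 in Ly6Clo and 0.18 in Ly6Chi monocytes, beside 0.02 and 0.0041 over all expressed genes.

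A wider list of iron and heme genes, chosen for their roles, gave 45 further genes, of which 37 were expressed. In the Ly6Clo genotype comparison 1 of the 37 was 2-fold or more higher, against 8.97% of expressed genes, and 4 were lower, against 11.1%. The median log2 ratio of the 37 was 0.12. In Ly6Chi monocytes 2 were higher and 2 lower, against 2.64% and 4.55%, with a median of 0.0080. All these 9 differences kept their direction under every setting run, which says little because they were picked for being past 2-fold. Only that of Ppox also stayed past 2-fold throughout. The others came within 2-fold under at least 1 setting, down to -0.43 for Slc46a1 in Ly6Chi monocytes with a pseudocount of 5.

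Among uptake genes, Lrp1, whose product takes up heme bound to hemopexin, was at 14.7 FPKM in control against 4.70 FPKM in RBP-J-deficient Ly6Clo monocytes, a log2 ratio of -1.46. Steap3, an endosomal ferrireductase gene, was at 5.61 FPKM in control against 1.85 FPKM in RBP-J-deficient Ly6Chi monocytes, a log2 ratio of -1.21. All 5 expressed uptake genes, Tfrc included, had a ratio below 0 in both subsets. Taken separately, 4937 of 10236 expressed genes were below 0 in Ly6Clo and 5049 of 10238 in Ly6Chi monocytes. The share of expressed genes below 0 in both subsets was not counted. Of the 5 uptake genes, Cd163 and Steap3 were below an FPKM of 1 in both Ly6Clo libraries, so their direction there rests on very low values. The smallest ratio of the 5 was that of Slc11a2 in Ly6Chi monocytes, at -0.0016.

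Of 4 expressed heme transport genes, 1 was 2-fold or more lower in each subset, against 11.1% of expressed genes in Ly6Clo and 4.55% in Ly6Chi monocytes. Slc48a1 encodes HRG1, which carries heme out of the phagolysosome. It was at 8.55 FPKM in control against 3.42 FPKM in RBP-J-deficient Ly6Clo monocytes, a log2 ratio of -1.11. Slc46a1, a folate and heme carrier gene, was at 2.18 FPKM in control against 0.336 FPKM in RBP-J-deficient Ly6Chi monocytes, a log2 ratio of -1.25. Its Ly6Clo values went the other way, 0.513 in control against 1.24 in RBP-J-deficient cells, a ratio of 0.57. All these Slc46a1 values are low, so the size depends on the pseudocount.

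Heme breakdown has 4 expressed genes, and all 4 had a genotype ratio above 0 in both subsets. Taken separately, 5254 of 10236 expressed genes were above 0 in Ly6Clo and 5160 of 10238 in Ly6Chi monocytes. The share above 0 in both subsets was not counted. Blvra, the gene of the main adult biliverdin reductase, was at 115.6 FPKM in control against 279.5 FPKM in RBP-J-deficient Ly6Clo monocytes, a log2 ratio of 1.27. In Ly6Chi monocytes Blvra was at 101.3 FPKM in control against 163.8 FPKM in RBP-J-deficient cells, a ratio of 0.69. Hmox2, the constitutive heme oxygenase gene, had ratios of 0.53 and 0.01 in the Ly6Clo and Ly6Chi subsets. The signs of Hmox1 in Ly6Clo and of Hmox2 in Ly6Chi monocytes turned under other scalings, the latter to -0.14 when FPKM was rescaled to a common sum and to -0.0064 with the GC trend subtracted.

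Heme synthesis genes were mixed. Ppox, the gene of protoporphyrinogen oxidase, was at 9.83 FPKM in control against 1.64 FPKM in RBP-J-deficient Ly6Clo monocytes, a log2 ratio of -2.04, the lowest of the list. Alas2, the erythroid form of the first enzyme of the pathway, was at 6.66 FPKM in control against 1.60 FPKM in RBP-J-deficient Ly6Clo monocytes, a log2 ratio of -1.56. Its ratio in Ly6Chi monocytes was 0.46. Uros, the gene of uroporphyrinogen III synthase, was at 7.22 FPKM in control against 18.1 FPKM in RBP-J-deficient Ly6Chi monocytes, a log2 ratio of 1.21.

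Regulators were mostly within 2-fold. Spic, which encodes a transcription factor of red pulp macrophages, was at 6.38 FPKM in control against 15.5 FPKM in RBP-J-deficient Ly6Chi monocytes, a log2 ratio of 1.16. Its Ly6Clo values were 19.9 in control against 17.7 in RBP-J-deficient cells. Bach1, whose product represses Hmox1 when heme is low, was at 7.002 FPKM in control against 14.7 FPKM in RBP-J-deficient Ly6Clo monocytes, a ratio of 0.98. Nfe2l2, the gene of NRF2, had 163.4 and 203.2 in the same libraries, a ratio of 0.31 that turned to -0.05 when FPKM was rescaled to a common sum.

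**Figure D4:**
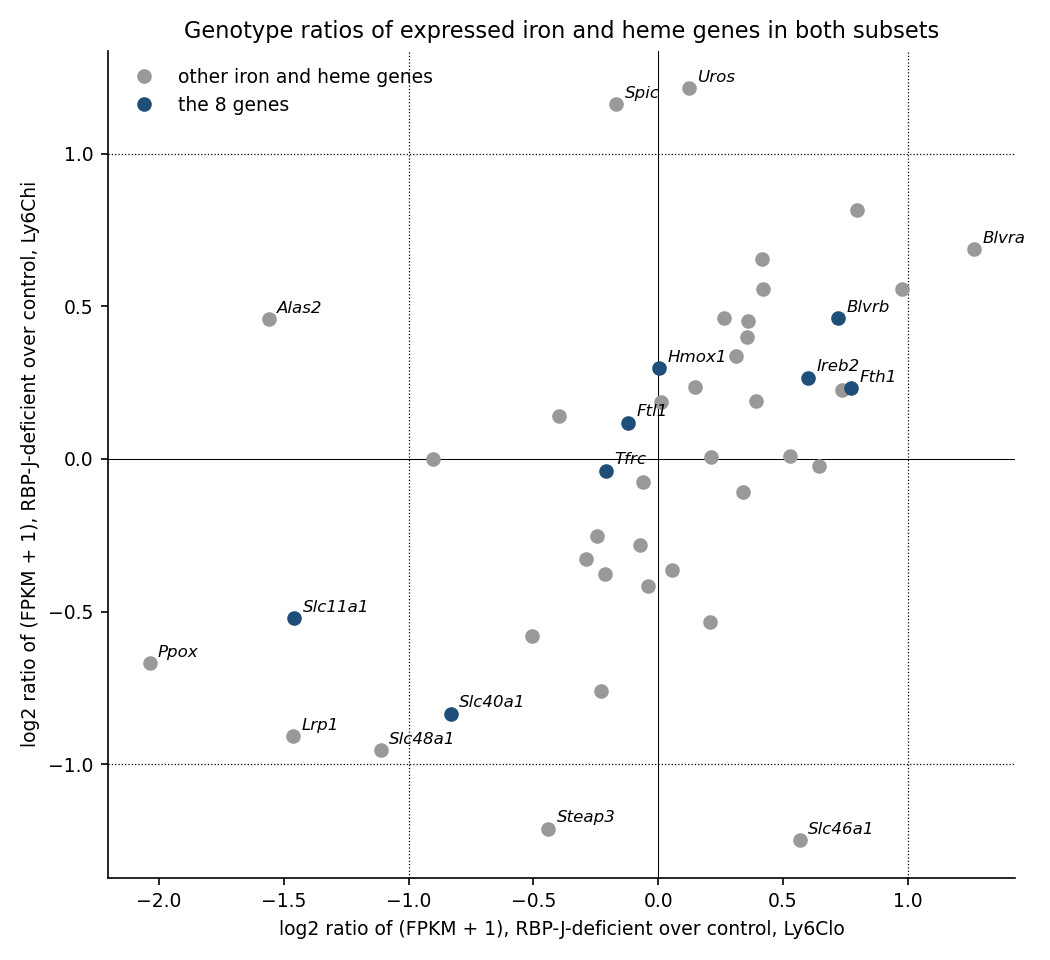
Genotype ratio (log2 of FPKM + 1, RBP-J-deficient relative to control) in Ly6Clo (horizontal) and Ly6Chi monocytes (vertical) for the 8 genes (blue) and 37 other expressed iron and heme genes (grey), with dotted lines at 2-fold and names on the 8 and on genes past 2-fold. Slc11a1, Slc40a1, Lrp1, Slc48a1 and Ppox are below 0 on both axes, and Blvrb and Blvra above 0 on both.

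RNA of other blood cells was present and differed between the libraries. The adult hemoglobin rows summed to an FPKM of 3180 in control Ly6Clo, 1283 in RBP-J-deficient Ly6Clo, 1665 in control Ly6Chi and 1314 in RBP-J-deficient Ly6Chi. Alas2 was highest and lowest in the same Ly6Clo libraries as hemoglobin. In Ly6Chi monocytes it went the other way, at 2.96 FPKM in control against 4.44 FPKM in RBP-J-deficient cells. Within each subset Fth1 and Blvrb were higher in the library with less hemoglobin. Between the control libraries both were higher in Ly6Clo, the one with more hemoglobin, with Blvrb at 79.9 against 49.4 in Ly6Chi. The erythroid membrane gene Slc4a1 was at 0 except in RBP-J-deficient Ly6Chi, at 0.0205. Platelet markers, all 5 expressed, summed to between 124.1 and 350.3 and were higher in both Ly6Chi libraries. Neutrophil markers, 7 of 8 rows expressed, summed to between 170.1 and 1522, and some of them are also expressed by Ly6Chi monocytes. Of the granule genes among them, Ltf was at most 0.0202 in all libraries, Mmp8 was at 194.8 FPKM in control against 154.5 FPKM in RBP-J-deficient Ly6Chi monocytes, and Camp at 5.52 and Ngp at 4.87 in RBP-J-deficient Ly6Chi were at 0 in control Ly6Chi. B cell markers summed to between 25.04 and 101.5, dendritic cell markers to between 0.710 and 14.2, NK cell markers to between 0.0815 and 2.27, T cell markers to at most 0.888, and tissue macrophage markers, Spic among them, to between 10.6 and 20.0. The part of these cells in the results was not tested.

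The log2 ratios also varied with base composition, in the genotype and the subset comparisons alike. Across 6086 genes, which are not independent replicates, the genotype ratio had a Spearman rho with transcript GC content of -0.37 in Ly6Clo and -0.29 in Ly6Chi monocytes. For Ly6Clo over Ly6Chi, rho was -0.35 between the RBP-J-deficient libraries and -0.17 between the control libraries. With 1 library per group, a trend tied to genotype cannot be told from one tied to single libraries. What base composition adds to the results was not tested beyond the values given with the trend subtracted. When FPKM was rescaled to a common sum, the median ratio of expressed genes was -0.26 in Ly6Clo and -0.12 in Ly6Chi monocytes. The rescaled Ly6Clo ratios were -1.82 for Slc11a1, 0.41 for Fth1, 0.37 for Blvrb and 0.29 for Ireb2, and Fth1 in Ly6Chi monocytes was at 0.08. Relative to the median, Slc11a1 had -1.55, Fth1 0.68, Blvrb 0.63 and Ireb2 0.55 in Ly6Clo monocytes.

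**Figure D5:**
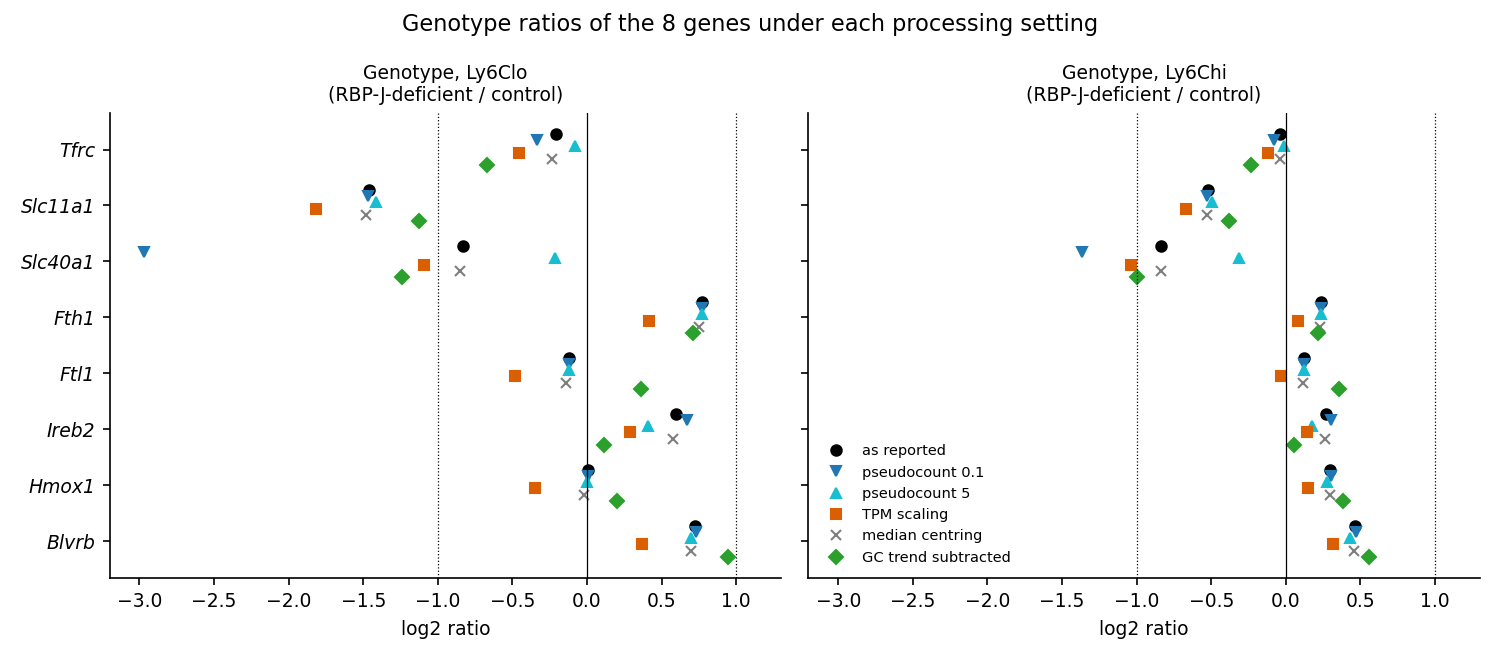
Log2 genotype ratio of the 8 genes in Ly6Clo (left) and Ly6Chi monocytes (right) as reported and under 5 other settings (symbols), with dotted lines at 2-fold. Slc11a1 in Ly6Clo monocytes stays between -1.82 and -1.13, Slc40a1 spreads most, and Ftl1 lies on both sides of 0.

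The genes with the most similar profiles were found by the Euclidean distance of centred log2(FPKM + 1) over the 4 libraries, among 6400 genes and thus over only 4 points. Slc11a1 had the most distant matches, Leng9 at 0.16, Nr1h3 at 0.22 and Ubxn2a at 0.24. Nr1h3, the gene of the oxysterol receptor LXR alpha, had an FPKM of 14.0 in control Ly6Clo, 5.603 in RBP-J-deficient Ly6Clo, 5.93 in control Ly6Chi and 4.13 in RBP-J-deficient Ly6Chi. Fth1 lay nearest to Magoh, Nars and Sh3bgrl3, at 0.02 to 0.04. Blvrb lay nearest to Zfp97, Senp6 and Tpr, and Ireb2 to Dnlz, Cript and Ensa. Hmox1 lay nearest to Commd5, Zcchc8 and Neurl3, and Ftl1 to Alkbh6, Fam104a and Nubp1. Slc40a1 lay nearest to Ddx49, Atg7 and Cmtm6, and Tfrc to Chd1l, Pphln1 and Prpsap2. The matches of these scarce genes depend on the pseudocount, which narrows their profiles. In control against RBP-J-deficient Ly6Clo monocytes, Slc40a1 was at 0.807 and 0.0158 FPKM, but Ddx49 at 8.38 and 4.27.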

How the data were processed

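The authors deposited FPKM values for 23995 gene symbols in all 6 pairs of 4 libraries, 1 library per group. Reads were paired-end from an Illumina instrument. The submitters' processing notes name CASAVA 1.8, TopHat2 2.1.0, Cufflinks 2.2.1 and build mm10, and the strand setting is not given in the sources used here. The authors' own fold changes, test statistics, p-values and q-values in the table were not used.

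The 8 genes and the lists were chosen with earlier results of these data known. Log2 ratios of (FPKM + 1) were computed for each pair, and rows with the same symbol were summed. Pairs with a failed or too deep estimate (4 symbols, none of the 8 genes) got no ratio. Genes reaching an FPKM of 1 in any library counted as expressed. The genes named were the 8, the list genes past 2-fold in a genotype comparison, and the 3 nearest profiles of each among expressed genes whose mean FPKM reached 5. Bach1, Nfe2l2, Hmox2, Slc11a2, Cd163, Ly6c2, Ltf, Mmp8, Camp, Ngp and, in the closing section, Slc25a28 and Iscu were named after their values were seen. Cell type markers were planned as sums only, so Ccr2, Nr4a1, Csf1r, Cx3cr1, Itgam and Slc4a1 were also picked from their lists afterwards. Depth is unknown, so no interval was given.

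Alternatives were pseudocounts of 0.1 and 5, rescaling to a sum of 1000000 (TPM), median centring, subtraction of the lowess trend on GC content (fraction 0.3, 3 iterations, GC content known for 94.9% of expressed genes), a 1.5-fold threshold and filters on FPKM. The procedures were tested on simulated data. Positions and UTRs are GENCODE M21 (GRCm38, the same assembly as mm10). Python 3.11.15, pandas 2.3.3, numpy 2.4.6 and statsmodels 0.14.6 were used.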

Additional observations from a re-analysis of the deposited data

Results flagged for a closer look

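Ftl1 had opposite signs in the 2 subsets, which is why it is listed here. Its log2 ratio of RBP-J-deficient over control was -0.12 in Ly6Clo and 0.12 in Ly6Chi monocytes, from FPKM values of 18027 and 16580.3 in the former and 15889 and 17257 in the latter. Whether the subsets differ in this was not tested. Both ratios changed sign under another setting.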

How the results depend on the processing

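No paired analysis was possible because each group holds 1 library, and no library could be left out. Of 160 ratios of the 8 genes under other settings, 140 kept their sign and their side of 2-fold, 11 crossed 2-fold with the same sign, 10 of them those of Slc40a1, and 9 changed sign. For these the cause was not tested. With the GC trend subtracted, the Ly6Clo genotype ratio of Ftl1 was 0.36, and the ratios of Ly6Clo over Ly6Chi in RBP-J-deficient mice were -0.053 for Tfrc, 0.34 for Ftl1, -0.069 for Ireb2 and 0.043 for Hmox1. With TPM scaling, the Ly6Clo genotype ratio of Hmox1 was -0.35, the Ly6Chi genotype ratio of Ftl1 was -0.030 and the RBP-J-deficient subset ratio of Slc11a1 was -0.022. With median centring, Hmox1 in Ly6Clo monocytes was at -0.020. The median ratio of the 8 genes in the Ly6Clo genotype comparison, -0.06, was 0.16 with the GC trend subtracted and 0.30 over the 6 genes that reached an FPKM of 1 in every library. The number of genes 2-fold or more lower was 2 in the Ly6Clo genotype comparison with a pseudocount of 0.1, with TPM scaling and with the GC trend subtracted, in place of 1, and 1 in the Ly6Chi genotype comparison under the same settings, in place of 0. In the subset comparisons it was 1 in control mice with a pseudocount of 0.1, and 1 in RBP-J-deficient mice with a pseudocount of 0.1, TPM scaling or the GC trend subtracted. With the GC trend subtracted, 1 gene (Blvrb) was 2-fold or more higher in Ly6Clo than in Ly6Chi monocytes of RBP-J-deficient mice. A 1.5-fold threshold gave 3 higher and 2 lower in the Ly6Clo and 1 lower in the Ly6Chi genotype comparison, and 2 higher and 1 lower in each subset comparison, to be read against the shares of all expressed genes given with these counts above. Among genes with a mean FPKM of 10 or more, 2.38% were 2-fold or more lower in the Ly6Chi genotype comparison, in place of 4.55%. Since read depth is unknown, the counting error of the low values of Slc40a1 and Tfrc cannot be given.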

Other observations

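Of the mitochondrial iron genes of the list, 2 with higher values in both RBP-J-deficient libraries are given here. Slc25a28, which encodes the mitochondrial iron importer mitoferrin 2, was at 15.9 FPKM in control against 28.3 FPKM in RBP-J-deficient Ly6Clo monocytes, and at 9.81 and 18.0 in Ly6Chi monocytes. Iscu, the gene of the scaffold for iron-sulfur clusters, was at 578.0 FPKM in control against 742.3 FPKM in RBP-J-deficient Ly6Clo monocytes, and at 515.9 and 705.8 in Ly6Chi monocytes. With FPKM rescaled to a common sum, the Ly6Clo genotype ratio of Iscu was only 0.00098.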
